A study of Mus musculus with 19 samples.

Results

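The day 0 (D0) knockout and wild-type maps of 5-hydroxymethylcytosine (5hmC) were compared to ask what the knockout changed before mouse pre-iPSCs were carried through conversion. Libraries were chosen by title, day and genotype, which gave 5 of the 19 samples of the series: KO1 and KO2 (1 library each) and wild-type (WT) replicates A, B and C. Their peak lists held 418407 of the 1601520 deposited peaks, of which 415768 lay on chromosomes 1 to 19 and were analysed. Chromosome 5 was kept apart throughout, because KO1 carried an excess of peaks there. Positions are on mm9 and carry no gene names, since no annotation of that build was used here.

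All 5 libraries came from pre-iPSCs made from mouse embryonic fibroblasts, cells that stall part of the way through reprogramming. The labels give ascorbic acid with 2i (CHIR-99021 and PD-0325901, inhibitors of GSK3 and MEK) as the treatment of D0 libraries too, so WT and KO shared it. The deleted gene is not named in them, and KO1 and KO2 are taken as a pair of lines that may or may not lack the same one. Nothing in the labels ties replicates to separate cultures, so the spread behind each p-value may be technical. Whether the cells carried pre-iPSC markers was not tested, because 5hmC peaks without gene names do not show it. Names of the peak-calling runs, kept inside the lists, follow 3 spelling styles, a possible trace of batches. WT B and KO1 share a style, WT C and KO2 share another, and WT A has its own.

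5hmC is made when TET enzymes oxidise 5-methylcytosine, and it is both a step in the removal of DNA methylation and a mark in its own right. In many mammalian cells it is found at enhancers and along transcribed genes. Ascorbic acid is known to raise TET activity, and inhibition of GSK3 and MEK favours the naive pluripotent state. Here the captured DNA was sequenced and each peak is a stretch where a library exceeded its background, so a list shows where 5hmC was detectable and not how much a cell held.

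The lists differed in length as much among WT libraries as between genotypes. Off chromosome 5, WT A, B and C held 87118, 108389 and 57201 peaks, KO1 held 54536 and KO2 held 81783. They covered 34.6, 53.6 and 20.9 Mb in WT and 27.2 and 33.6 Mb in KO1 and KO2. KO1 had the fewest peaks, yet it covered more bp than WT C, since its median peak was 422 bp wide against 327 bp. The shortest peak also differed by list, at 226, 261 and 237 bp in WT A, B and C, 276 bp in KO1 and 234 bp in KO2. The part of this minimum in the widths was not tested. The difference in log2 peak number, KO minus WT, was -0.286 (two-sided exact permutation p = 0.4, where 2 libraries against 3 allow none below 0.1). That in log2 covered bp was -0.162 (exact permutation p = 0.7). By line, log2 peak number was lower than the WT mean by -0.579 in KO1 and level with it in KO2 (0.006). Within a style of run names the lines went opposite ways, with -0.991 for KO1 minus WT B and 0.516 for KO2 minus WT C.

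Relative to the shared input, depth was 1.40, 1.47 and 0.968 in WT A, B and C. It was 1.23 and 1.15 in KO1 and KO2. These values were read from the steps of the fold values, except in WT C. For WT C the value is its own background over that of the input, so it was not obtained as the others were. Depth and list length went together at the ends of the WT range, where WT B was highest and WT C lowest on both. WT C was also the only D0 list scored against its own background and not the input. The part of depth and background in the results below was not tested. To limit the effect of length, lists were also cut to the 51465 strongest peaks of each library off chromosome 5, by the authors' -log10 p. The strength limit of each library was carried over to its chromosome 5. The cut kept 59.1, 47.5 and 90.0% of the peaks of WT A, B and C, 94.4% of those of KO1 and 62.9% of those of KO2. The lowest -log10 p kept was 10.5, 13.3 and 7.35 in WT, 6.85 in KO1 and 11.3 in KO2. A strongest list was thus nearly the whole list in KO1 and WT C, at a looser limit than in the others.

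KO1 held an excess of 5hmC peaks on chromosome 5, and KO2 did not. The chromosome held 5.41, 5.63 and 6.81% of the peaks of WT A, B and C, 10.3% of those of KO1 and 5.56% of those of KO2. In number, KO1 had 6296 peaks there, fewer than the 6471 of WT B alone, from a list that elsewhere was the shortest of the 5. The share of KO1 was 1.74 times the WT mean, while on each other chromosome, as a share of the peaks off chromosome 5, it lay within 0.91 to 1.10 times. The same line held 10.3 and 10.5% of its peaks there at days 2 and 10, against 4.29 to 6.42% in WT and KO2 on those days.

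**Figure D1:**
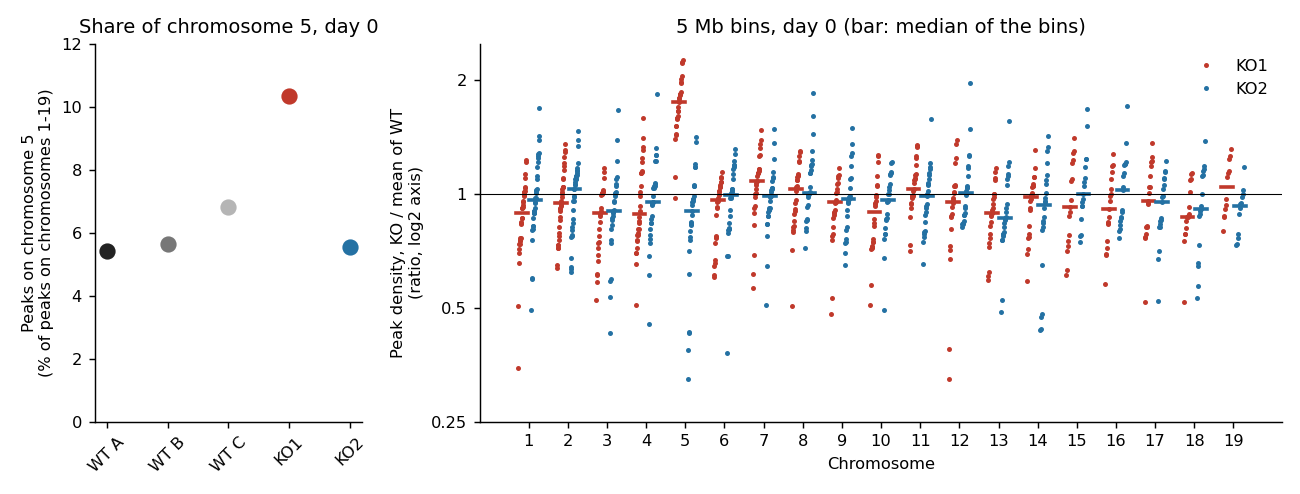
The left panel plots the percentage of peaks on chromosome 5 in each D0 library, and the right panel the peak density of 5 Mb bins in KO1 and KO2 over the WT mean, by chromosome, on a log2 axis. KO1 stands at 10.3% on the left, and its chromosome 5 bins have a median of 1.75, whereas those of KO2 have a median of 0.900.

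The excess ran along nearly the whole chromosome. Bins of 5 Mb with at least 20 peaks in each WT library were used, scaled per 10000 peaks off chromosome 5. KO1 exceeded all 3 WT libraries in 27 of 29 such bins of chromosome 5 (93.1%). Its median ratio to the WT mean was 1.75, with bins from 0.972 to 2.26. On the other chromosomes it exceeded all WT libraries in 110 of 434 bins (25.3%), with a median ratio of 0.949. A ratio of at least 1.5 occurred in 24 of the 29 bins on chromosome 5 and in 1 of 434 elsewhere.

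On chromosome 5 KO1 had both more of the WT sites and more sites of its own. Of the regions with a peak in all 3 WT libraries, KO1 had a peak in 91.3% on chromosome 5 and 73.3% elsewhere, against 71.9 and 73.0% for KO2. Of the regions with a KO1 peak, after peaks of the 5 libraries were merged, 22.2% on chromosome 5 and 9.67% elsewhere held no WT peak. For KO2 these shares were 26.8 and 26.5%. On the strongest lists they were 36.1 and 21.7% for KO1, and 32.1 and 33.1% for KO2. In 10 kb windows the median log2 difference of KO1 from WT was 0.83 on chromosome 5, with 89.1% of 1223 windows above 0, and 0.15 on the others. KO2 went the other way, with medians of -0.16 and 0.02. These values describe an excess that was known when chromosome 5 was set apart, so they were not tested. KO means on chromosome 5 therefore rest mostly on KO1, and all values below leave the chromosome out unless it is named.

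The overlap of KO with WT lists at D0 lay mostly within the range of the overlaps between WT replicates. Overlap is given as shared bp in percent of the bp in either list, on lists of 51465 peaks. WT A and B shared 50.8%, A and C 30.4%, and B and C 26.1%. KO1 shared 36.7, 39.3 and 29.8% with WT A, B and C. KO2 shared 30.0, 30.8 and 23.4% with them, and 29.4% with KO1. Both KO lines were thus no more alike than KO1 and any WT library, and KO1 lay nearer to WT A and B than WT C did. The pairs within a style of run names were the highest (KO1 with WT B) and the lowest (KO2 with WT C) of the 6 KO pairs with WT.

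**Figure D2:**
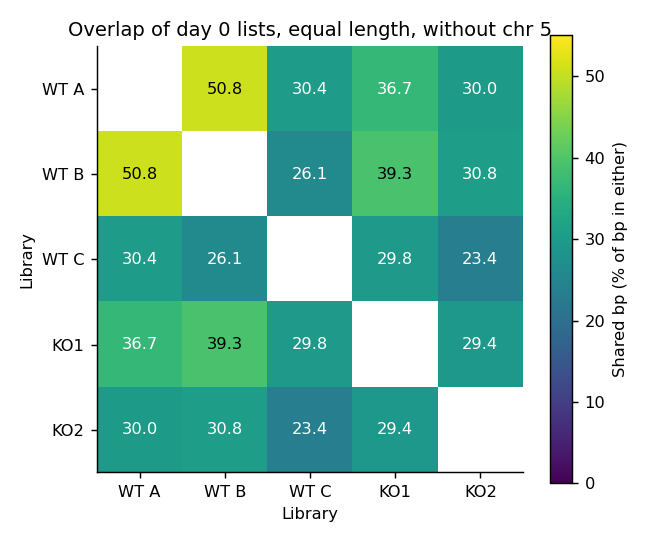
Each cell of the grid gives the shared bp of a pair of D0 lists, in percent of the bp in either, for lists of 51465 peaks without chromosome 5. WT A and B stand out at 50.8%, and the other pairs range from 23.4 to 39.3%.

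The mean overlap with WT lists was 40.6, 38.4 and 28.2% for WT A, B and C against the remaining WT libraries, 35.3% for KO1 and 28.1% for KO2. KO minus WT was -4.08 points (two-sided exact permutation p = 0.6). Single libraries moved it far: the difference was -16.6 points without WT C and -0.387 without WT B, and it turned to 4.70 without WT A. It was -7.67 points without KO1 and -0.499 without KO2. On chromosome 5 alone it was -7.20 points (exact permutation p = 0.2), with 32.4% for KO1 and 26.8% for KO2.

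Strong WT peaks were found again in KO lists more often than weak ones, as they were in other WT lists. Each list was split by strength into 4 bands of equal size. Of the strongest band of WT A peaks, 98.6% had a peak in WT B, 76.9% in WT C, 85.3% in KO1 and 72.6% in KO2. In the weakest band these shares were 51.2, 33.3, 38.2 and 33.7%. KO1 stood above WT C in both bands, and KO2 stayed within 4.3 points of it.

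**Figure D3:**
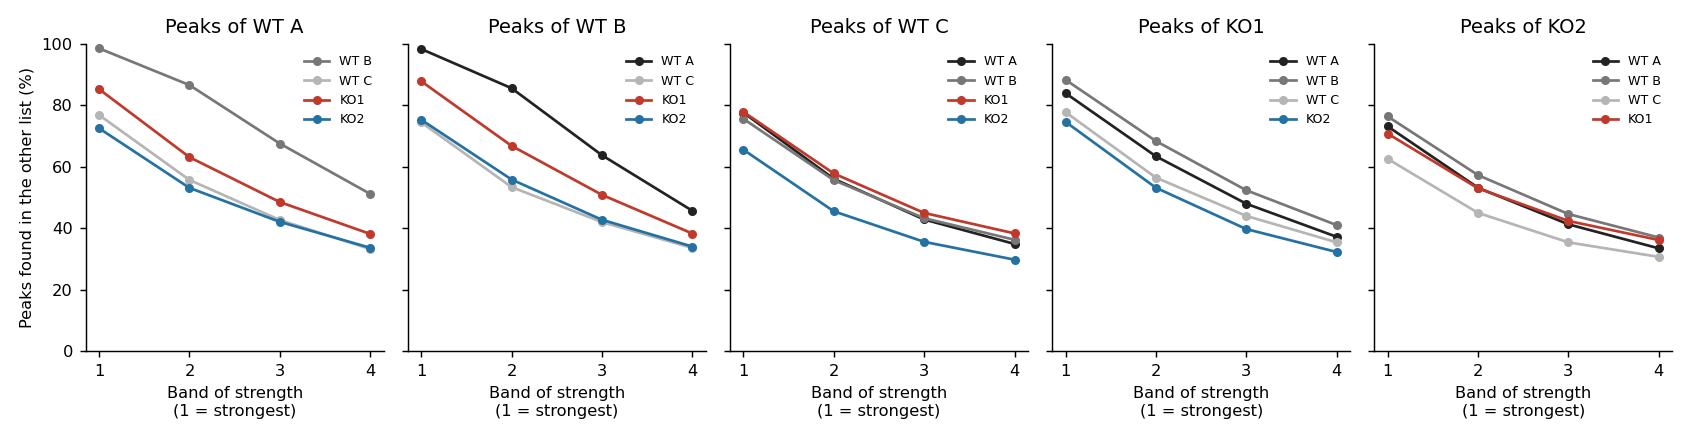
Each panel takes the strongest 51465 peaks of 1 D0 library, without chromosome 5, in 4 bands of falling strength, and plots the percentage with a peak in each of the other lists. All curves fall from the first to the last band, and for peaks of WT A the curves of KO1 and KO2 lie far below WT B and near WT C.

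Regions fixed on WT alone were then followed. Regions shared by a pair of WT libraries were read in the WT library left out and in each KO line, on whole lists. The left-out WT A, B and C had a peak in 85.8, 93.7 and 48.8% of them (76.1 ± 24.0%, SD, n = 3). KO1 had one in 68.4, 70.1 and 54.2% and KO2 in 68.9, 70.1 and 59.5% of these sets. Both KO lines thus stood below the left-out WT library in the first and second sets and above it in the third. With the strongest lists the left-out WT shares were 85.3, 84.1 and 59.2%, those of KO1 79.3, 76.1 and 68.8%, and those of KO2 65.0, 62.9 and 58.7%. On chromosome 5, KO1 stood at 86.9, 89.1 and 79.3% and KO2 at 66.2, 68.8 and 58.6%, against 82.1, 93.9 and 54.8% in WT.

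Merging the peaks of the 5 libraries gave 153920 regions over 76.4 Mb. Of these, 20911 (13.6%) had a peak in all 5 libraries and 57698 (37.5%) in 1 library only. Of 35212 regions with a peak in every WT library, 86.9% had one in at least 1 KO line, and of 34449 with a peak in both KO lines, 96.6% had one in at least 1 WT library. Both lines and no WT library shared 1183 regions (0.769%), and all WT libraries and no KO line shared 4608 (2.99%). The second count needs absence in 2 lists and the first absence in 3, so they are not on 1 scale. With lists of 1 length the counts were 2143 (1.98%) and 2210 (2.04%) of 108348 regions. The count of the KO set was 20968 without KO1, 5172 without KO2 and 3048 without WT B. That of the WT set was 19475 without WT C, 9555 without KO1 and 9437 without KO2. Leaving out a library also changes the total of merged regions, so these counts are not shares of 153920. On chromosome 5, 218 regions (2.11%) were of the first kind and 119 (1.15%) of the second, of 10322.

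The regions of the KO set were mostly weak. Ranked from strongest (0) to weakest (100) within a library, their peaks had a median percentile of 69.8 in KO1 and 62.6 in KO2. Peaks of the WT set stood at 53.0, 49.7 and 57.1 in WT A, B and C, and those of regions found in all 5 libraries at 18.0 to 32.3. Regions found in a single library stood at 72.5 in KO1, 65.2 in KO2 and 77.4, 76.3 and 68.7 in WT A, B and C. Weakness was thus not particular to the KO set.

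A few of them were long. The longest region of the KO set, chr17:6947058-6949776, spanned 2719 bp, with 970 bp under KO1 peaks and 2719 bp under KO2 peaks. It had a peak in all 3 WT libraries at days 2 and 10 too, so its absence from WT was limited to D0. The region chr14:29319379-29321048 held 1648 bp in KO1 and 1603 bp in KO2, and both lines had a peak there at days 2 and 10 while no WT library did on any day. The region chr4:139386892-139388376 held 1485 and 495 bp and had a peak in 2 WT libraries at day 2. The remaining 2 of the 5 longest, chr17:43594370-43596116 and chr11:6964102-6965564, rested mostly on 1 line, with 308 and 277 bp in the other. On chromosome 5 the longest were chr5:128935951-128938490, with 2540 bp in KO1 and 344 bp in KO2, and chr5:113281814-113283967, with 1060 and 1706 bp.

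The longest region of the WT set, chr4:55064349-55066307, held 1884, 1959 and 611 bp under the peaks of WT A, B and C and none in KO1 or KO2. At day 2 KO1 and all 3 WT libraries had a peak there, and KO2 did not. The next, chr8:26027660-26029605, held 1637, 1946 and 489 bp in WT and gained a KO2 peak at day 2. Those at chr13:20238287-20239859 and chr15:64016285-64017819 had peaks in both lines at day 2. At chr18:42100710-42102498 only KO1 had a day 2 peak, and no WT library did. All 5 thus had a peak in at least 1 KO line at day 2. On chromosome 5 the longest were chr5:115458031-115458888, with 427, 858 and 627 bp in WT, and chr5:151988010-151988866, with 793, 857 and 611 bp.

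At day 2, peaks found in a single KO line at D0 came back more often in that line than in the other. Of 3930 regions found at D0 in KO1 alone, 38.9% had a peak in KO1 at day 2 against 22.8% in KO2 and 30.1% on average in WT. Of 19603 found in KO2 alone, 41.7% had one in KO2 at day 2 against 21.3% in KO1 and 22.5% in WT. Over all D0 regions the day 2 shares were 44.8% for KO1, 40.9% for KO2 and 44.8% for WT, so each set stood below or near this level in its own line and far below it in the other. At day 10 the shares were 46.1% (KO1) and 19.1% (KO2) for the first set, and 28.5% (KO2) and 16.2% (KO1) for the second, against 46.7% in KO1 and 31.8% in KO2 over all D0 regions. On the strongest lists, the later lists of a line shared more bp with its own D0 list than with the other D0 lists, by margins that were often small. KO1 overlapped its D0 list by 19.4% at day 2 and 30.8% at day 10, and the other D0 lists by 15.6 to 18.6% and 22.0 to 28.1%. KO2 overlapped its D0 list by 19.6% and 10.2%, and the others by 13.7 to 16.1% and 8.83 to 9.94%.

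**Figure D4:**
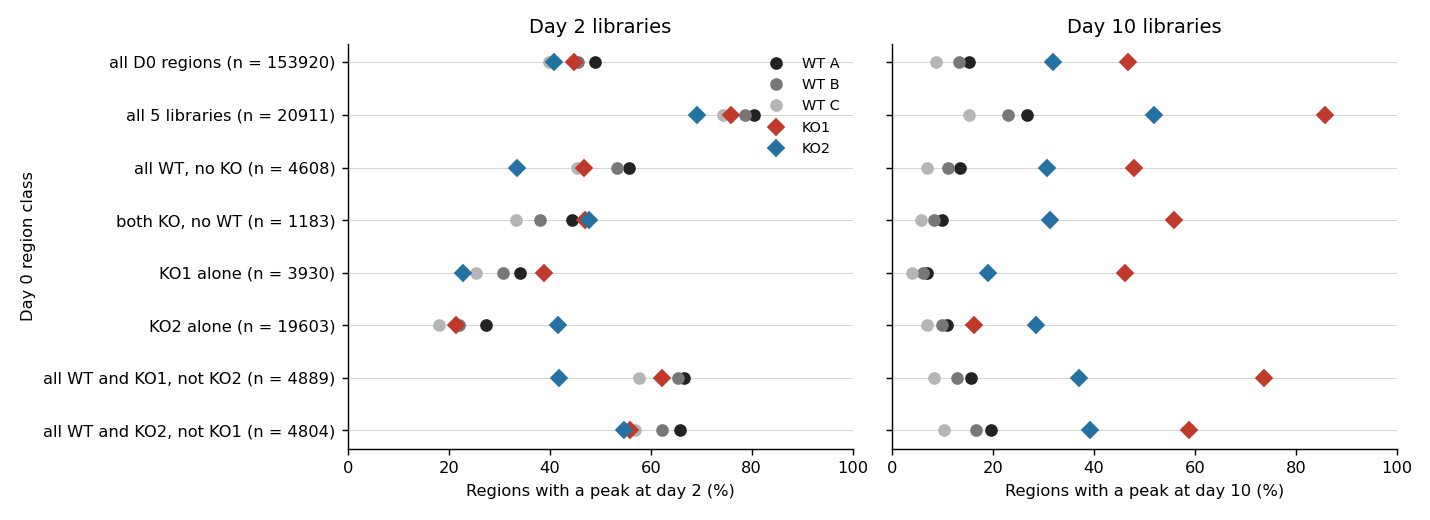
Rows are classes of D0 regions by the libraries that had a peak, without chromosome 5, and points give the percentage of each class with a peak in each WT, KO1 and KO2 library of day 2 (left) and day 10 (right). Regions of KO1 alone reach 38.9% in KO1 at day 2 and 22.8% in KO2, and regions of KO2 alone reach 41.7% in KO2 and 21.3% in KO1.

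The 1183 regions of the KO set had a day 2 peak in 47.0% of cases in KO1, 47.7% in KO2 and 38.6% on average in WT. The 4608 of the WT set had one in 46.8, 33.6 and 51.5%. The day 2 share in WT thus differed by -12.9 points between the sets, and by -2.10 points with lists of 1 length. At day 10 the KO set stood at 55.9 and 31.3% in KO1 and KO2 and the WT set at 47.9 and 30.6%, while the WT mean was 8.0 and 10.5%. Over all D0 regions these day 10 shares were 46.7% in KO1, 31.8% in KO2 and 12.4% in WT, so the low WT values were not particular to either set.

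At the scale of 5 Mb, both lines had fewer peaks than all WT libraries in a set of bins that were mostly sparse in WT. Both lines exceeded all 3 WT libraries in 52 of 434 bins (12%) and fell short of all 3 in 109 (25.1%). If the genotype labels were assigned to the libraries at random, a share of 0.1 would be expected in each direction. The higher bins were near that share, so they are not read as a difference, and the lower bins were above it. However, bins were kept only where each WT library had at least 20 peaks, with no such limit for KO. That filter can favour bins that are low in KO, above all sparse ones, so the lower bins are not read as a difference either. The part of the filter was not tested. The bins where both were higher held a median of 31.2 WT peaks per 10000, those where both were lower 14.6, and all bins 20.9. With the strongest lists 40 bins were higher and 84 lower, with WT medians of 29.7 and 17.4. No test was made over bins, which share their libraries.

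The bin in which both lines rose most above the WT mean was chr4:150000001-155000000, with 25.7, 27.7 and 29.7 peaks per 10000 in WT A, B and C, 44.0 in KO1 and 50.7 in KO2. In the bin chr12:105000001-110000000 the WT values were 26.7, 26.5 and 31.3, against 39.1 and 55.1. The lowest relative to WT was chr1:45000001-50000000, with 4.25, 4.15 and 5.77 in WT and 2.38 and 2.32 in KO. These 3 bins stayed apart on the strongest lists as well, and 9 of the 10 bins chosen as most different did so. The strongest lists are part of the lists on which the bins were chosen, so this is no separate check.

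Replicate error was brought in with 10 kb windows, tested by the bp under the strongest peaks, scaled to a common total and taken as log2(bp + 200). It found few differences at D0. Of 14623 windows, 8 were higher in KO (0.0547%) and 2 lower (0.0137%) by limma with Benjamini-Hochberg adjustment at 0.05. At an unadjusted p under 0.05, 1057 windows (7.23%) passed, 630 of them higher. Both KO lines lay above all WT libraries in 1900 windows (13%) and below in 1143 (7.82%). Under all deposited peaks, not scaled, the same windows gave 769 above (5.26%) and 959 below (6.56%), so the lean upwards did not hold. Labels assigned at random would give a share of 0.1 in each direction, or less where values tie, so no share is read as a difference. Of the 1223 windows on chromosome 5 none passed (smallest limma adjusted p = 0.0851) and 74 had an unadjusted p under 0.05. In the same fit the comparison at day 2 called 4 windows (0.0274%), all lower in KO, and that at day 10 called 3871 (26.5%), with 3137 higher. The KO minus WT difference itself changed from D0 to day 10 in 1123 windows (7.68%, limma, adjusted), 901 upwards and 222 downwards. From D0 to day 2 it changed in 0 windows (0%), with 818 at an unadjusted p under 0.05.

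The largest rise lay at chr4:148300001-148310000, with no bp under the strongest peaks of any WT library, 1479 bp in KO1 and 3184 bp in KO2. When every deposited peak was counted, it held 264, 1198 and 0 bp in WT A, B and C and 1569 and 3359 bp in KO1 and KO2, so the groups stayed apart. The log2 difference was 3.58 (SE 0.43, limma adjusted p = 0.00267). It depends on the 200 bp added and is no bound. At day 2 the difference was 0.17, and at day 10 it was 0.13.

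Next came chr13:72100001-72110000, with no strongest-peak bp in WT against 1780 and 2477 bp, and 252, 714 and 0 bp in WT against 1889 and 2419 bp under all peaks. Its log2 difference was 3.53 (SE 0.41, limma adjusted p = 0.00267). At day 2 the difference was 0.13, and at day 10 it was high again at 3.42 (limma adjusted p = 8.9e-05). The window chr15:81990001-82000000 held 1627 and 2019 bp in KO and none in WT by the strongest peaks. Under all peaks, however, WT A, B and C held 1116, 2247 and 486 bp against 1726 and 2192 bp, so the groups overlapped there. The same happened at chr4:98480001-98490000, where WT B held 1800 bp against 1063 bp in KO1. At chr14:76540001-76550000 the groups stayed narrowly apart, with 525, 894 and 0 bp against 1805 and 935 bp. Of all 8 windows called higher, 4 kept the groups apart under all deposited peaks: those on chromosomes 13, 14 and 17 and the first of the pair on chromosome 4.

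Both windows called lower kept the groups apart. At chr19:24270001-24280000, WT A, B and C held 1309, 1300 and 1006 bp under the strongest peaks and KO none (log2 difference -2.80, SE 0.40, limma adjusted p = 0.0135). Under all peaks the values were 1248, 2134 and 786 bp against 0 and 419 bp. At chr13:51850001-51860000 the strongest peaks gave 1130, 1432 and 833 bp in WT and none in KO (log2 difference -2.71, SE 0.45, limma adjusted p = 0.036). Under all peaks WT held 1405, 1848 and 651 bp and KO 276 and 323 bp. The window chr10:107790001-107800000, which missed the threshold (limma adjusted p = 0.0673), had deposited peaks in every WT library (880, 1648 and 529 bp) and in neither line.

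**Figure D5:**
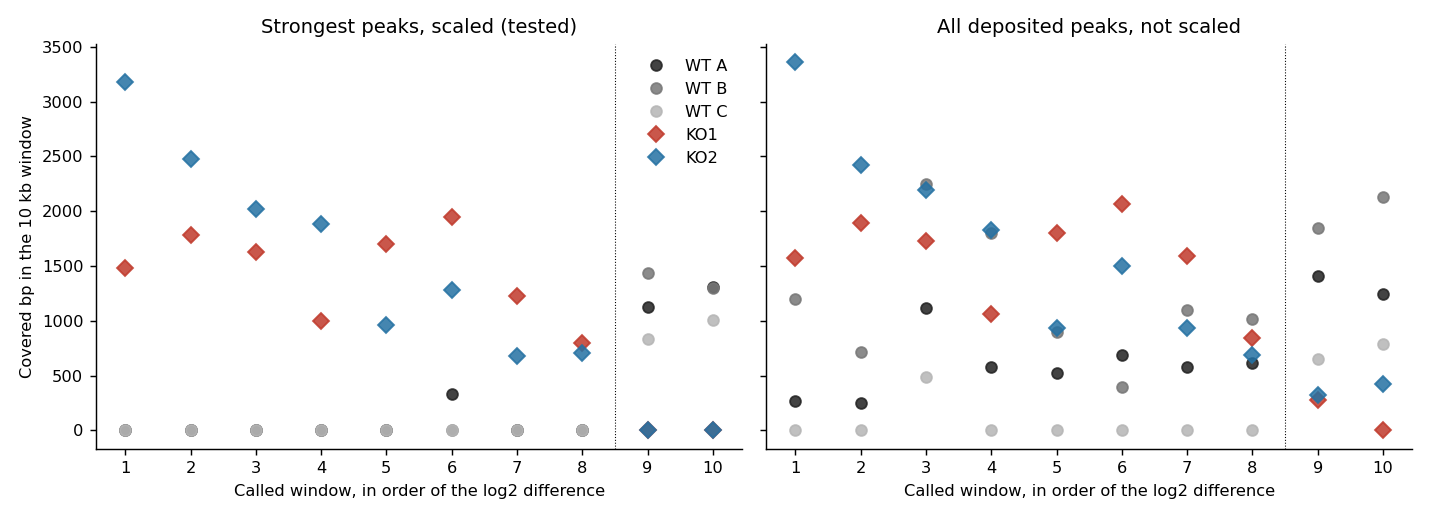
The 10 windows that passed the threshold are ordered by log2 difference, with the covered bp of each D0 library under the strongest peaks, scaled (left), and under all deposited peaks, not scaled (right); the dotted line parts the 8 higher in KO from the 2 lower. WT libraries sit at or near 0 on the left for the first 8, and on the right WT B reaches KO levels at windows such as the third, with 2247 bp against 1726 and 2192 bp.

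The calls did not hold under several settings. A setting with all deposited peaks and no scaling drops the cut and the scaling together and tests more windows. There 0 windows passed, and 1699 had an unadjusted p under 0.05 by limma. Only 399 of the 1699 were higher in KO, against 630 of 1057 in the main fit. In a fit of the 5 D0 libraries alone 0 passed (884 at an unadjusted p under 0.05). Without KO2 none passed (996 at an unadjusted p under 0.05), without KO1 3 were higher and 3 lower, and without WT C 25 and 9.

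Each line was also set against WT. A line has 1 library at D0, so these tests have no replicate of the line, and it is assumed to vary like the replicated groups of the fit. KO1 minus WT gave 0 windows (0%, limma, smallest adjusted p = 0.0561), with 992 at an unadjusted p under 0.05. KO2 minus WT gave 6 (0.041%), 3 higher and 3 lower, and 1588 at an unadjusted p under 0.05. One more, lower in KO2, was called on chromosome 5. The difference between the lines passed in 1 window (0.00684%), with 1388 at an unadjusted p under 0.05.

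That window was chr15:98720001-98730000, with 1789, 1486 and 1522 bp in WT A, B and C, 2750 bp in KO1 and none in KO2 under the strongest peaks. KO2 minus KO1 was -3.88 (SE 0.48, limma adjusted p = 0.02), a comparison of 1 library with 1 library that takes its spread from the other groups. Under all peaks WT held 2163, 2978 and 1190 bp, KO1 2918 bp and KO2 913 bp, so KO2 was lowest by both measures. The other windows called lower in KO2 than in WT were chr12:111790001-111800000, with 1926, 2470 and 1367 bp in WT, 1161 bp in KO1 and 511 bp in KO2 under all peaks, and chr11:79720001-79730000. The latter did not hold with all peaks, since KO2 had 1604 bp there against 1268, 2125 and 1196 bp in WT. The largest KO1 value, which did not pass, was at chr8:126130001-126140000, with 5744 bp in KO1 against 291, 0 and 0 bp in WT under the strongest peaks. Under all peaks the WT values were 1891, 4518 and 0 bp against 6623 bp.

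On chromosome 5 no window passed for KO minus WT, but chr5:145300001-145310000 had no deposited peak in any WT library and 1690 and 1594 bp in KO1 and KO2 (limma adjusted p = 0.142). Both lines lay above all WT libraries in 199 of 1223 windows there (16.3%) and below in 16 (1.31%), by the strongest peaks. Under all deposited peaks these were 130 (10.6%) and 16 (1.31%). KO1 alone was already high there, with 89.1% of its log2 differences from WT above 0 against 37.6% for KO2, so these counts are not read as shared by the lines.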

How the data were processed

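5hmC-bearing DNA was tagged with an azide glucose by T4 beta-glucosyltransferase, biotinylated, captured and sequenced, per the labels' protocols. The authors' tools were Bowtie, SAMtools and MACS2 and their build mm9, per the submitters' processing notes, with no versions stated in the sources used here. Each library had its own peak calls. Each deposited list gives a score, a fold enrichment (linear ratio), and -log10 p and q values per peak; these are the authors' own values and served only to rank peaks within a list. A p threshold of 0.0001 stands in the run names, per the file contents. Absolute depth is unknown.

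Peaks on chromosomes 1 to 19 were used, shared at 1 bp of overlap. Lists were used whole and cut to their 51465 strongest peaks off chromosome 5 (the number that the shortest list allowed over the pre-iPSC libraries). Windows of 10 kb that averaged 500 covered bp or more over the 15 pre-iPSC libraries entered limma 3.58.1 in R 4.3.3 (6 groups, or 7 with KO1 and KO2 at D0 apart; trend and robust), with Benjamini-Hochberg adjustment over 15846 windows, chromosome 5 included. Log2 differences are of bp + 200, which shrinks them in sparse windows. The strength cut can also remove deposited peaks of a library and so enlarge them, so they are no bound in either direction. At chr15:81990001-82000000 the difference was 3.33 by the strongest peaks and 0.72 under all peaks, not scaled. Single values were tested by two-sided exact permutation of libraries. The script was tested on simulated data. Python 3.11.15, numpy 2.4.6, pandas 2.3.3, scipy 1.17.1 and matplotlib 3.10.9 were used.

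Bins, windows and regions named are the most different per comparison by set rules (bins and windows with groups that do not overlap, the longest regions), with up to 5 per direction; single windows were trimmed to those discussed. Members, lists and rules were chosen with earlier results of these data known. Gene tests, gene lists and promoter regions were planned; without mm9 gene models these could not be made, and windows replaced them. KO and WT libraries at D0 are not paired by the labels; the WT letter or KO line, repeated over days, entered as a random block in 1 alternative.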

Additional observations from a re-analysis of the deposited data

Results flagged for a closer look

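The libraries of the 2 KO lines at D0 passed the threshold for a difference from each other in the window chr15:98720001-98730000. Each line has 1 library, so the test has no replicate of either line, takes its spread from the other groups and compares these libraries. KO2 minus KO1 was -3.88 on the log2 scale (SE 0.48, limma adjusted p = 0.02), with KO1 above and KO2 below all 3 WT libraries under the strongest peaks. This window did not pass with all deposited peaks or with run-name style as a block.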

How the results depend on the processing

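Values are for chromosomes 1 to 19 without 5. Of 94 recomputed values, 47 stayed the same by set rules. A difference tested by permutation had to keep its direction, a count to stay within 1.5 times, and any other value within 1 SD. The side of a threshold was not part of these rules. The 8 windows higher and 2 lower in KO became 51 and 33 with 50 bp added, 1 and 0 with 1000 bp, 210 and 227 with every covered window, 0 and 0 with a mean of at least 2000 bp (47 at an unadjusted p under 0.05), 2 and 1 in 20 kb windows and 5 and 0 with run-name style as a block. Leaving out 1 library gave 0 to 25 and 0 to 9. Both gave 0 with all deposited peaks or D0 alone. The replicate block (letter or line) gave 8 and 2. A fit without chromosome 5, chosen after seeing the data, also gave 8 and 2. KO1 minus WT had 7 windows with 1000 bp added and 0 to 2 on leaving out a WT library. KO2 minus WT had 0 with 1000 bp, all peaks or style as a block, and 4 to 61 on leaving out. KO2 minus KO1 had 2 with 1000 bp, 0 with all peaks or style as a block, and 1 to 3 on leaving out. Regions of both lines and no WT went to 2143 (1.98%) on the strongest lists and 1433 to 20968 on leaving out. Regions of all WT and no line went to 2210 (2.04%) and 5938 to 19475. The total of regions differs by setting. The day 2 share in WT differed by -2.10 points, in place of -12.9, on the strongest lists. Leaving out 1 library gave -0.579 to 0.00608 in log2 peak number, -0.509 to 0.169 in log2 covered bp and -16.6 to 4.70 points in overlap. The cause of these shifts was not tested. With 2 libraries against 3, no exact test could pass 0.05.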

Other observations

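The X chromosome was read apart, as a share of the peaks on chromosomes 1 to 19 and X. It held 0.656, 0.680 and 0.880% of these peaks in WT A, B and C, 0.474% in KO1 and 0.395% in KO2. Both KO lines lay below all WT libraries, by -0.304 points on average (two-sided exact permutation p = 0.1, the smallest that 2 against 3 allow). In number these were 608, 786 and 545 peaks in WT and 290 and 343 in KO1 and KO2.

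Peaks of at least 2 kb were most frequent in WT B, with 257, against 20 in WT A, 1 in WT C, 99 in KO1 and 36 in KO2. WT B and KO1 also had the highest minimum peak widths, at 261 and 276 bp.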
